A study of Rattus norvegicus with 8 samples.

Results

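Chemokines are small secreted proteins that direct the movement of leukocytes, and this account covers 10 of their genes in the rat Achilles tendon at rest and directly after running: Ccl2, Ccl7, Ccl17, Ccl3, Ccl4, Ccl20, Cxcl1, Cxcl2, Cxcl12 and Cx3cl1. They were taken by symbol from a list drawn up with earlier results of these libraries known, and 7 of the 10 had a row among the 15590 genes of the deposited table. Ccl3, Ccl4 and Ccl20 were not listed and have no value here. PolyA RNA was sequenced from right Achilles tendons of wild-type (WT) rats, Sprague Dawley males in the study's methods, in 4 libraries from rats killed immediately after a treadmill run of 1 h (0 h p.r.) and 4 libraries from naïve controls (NC) that did not run. According to the methods, airflow and a mild electric stimulus kept the rats running, so running, the treadmill and these stimuli cannot be told apart. The time of day at which the RNA rats were killed is not given in the sources used here. The treatment protocol given with the samples, not their titles, has both groups killed immediately. The methods for the single run have controls killed along with a group that had rested for hours after running. A difference in time of day therefore cannot be told apart from running. The p-values below set the difference between the groups against the spread between these libraries. The study's methods do not say whether each library came from a single rat.

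Inflammatory chemokines are made on demand by fibroblasts, endothelial cells and leukocytes, whereas homeostatic chemokines are made at rest and hold cells in place. CCL2 and CCL7 act mainly on CCR2 of monocytes, CXCL1 and CXCL2 on CXCR2 of neutrophils, and CCL17 on CCR4 of T cells. CXCL12 acts on CXCR4 and is taken up by the scavenging receptor ACKR3. CX3CL1 is made as a membrane-bound protein on a mucin stalk, can be shed by the proteases ADAM10 and ADAM17, and binds CX3CR1.

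After running, levels were higher for 5 of the 7 listed genes, Ccl2, Ccl7, Cxcl1, Cxcl2 and Ccl17, and neither Cxcl12 nor Cx3cl1 passed the test. The study picked out these same genes in these libraries, so their number and direction are not independent evidence. On log2(FPKM + 0.5), Ccl7, Ccl2 and Cxcl1 changed by 3.64, 3.33 and 3.31 and Cxcl2 and Ccl17 by less, but the order depends on the pseudocount, since with 0.1 in place of 0.5 Cxcl2 changed by 3.93 and Ccl7 by 3.89. All 5 passed both thresholds, a limma adjusted p under 0.05 and a fold of at least 2 on log2(FPKM + 0.5), where FPKM is fragments per kilobase of gene length, scaled to the library. Over all 13863 tested genes, 1.8% were called higher, 0.894% were called lower and 2.7% were called in either direction. In each of the 5 genes all 0 h p.r. libraries lay above all NC libraries, which was so for 8.15% of tested genes, with 7.47% the other way round. The median log2 fold change of the 7 genes was 2.22, against -0.0014 over all tested genes. This median is the value of Cxcl2 and depends on the pseudocount. With 1 it was 1.58, again the value of Cxcl2, and with 0.1 it was 3.41, the value of Ccl2. All 7 passed the filter (FPKM 0.5 or more in 4 or more libraries), but Cxcl2 and Ccl17 passed it only through the 0 h p.r. libraries and so had to differ to be tested.

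The libraries held between 11353941 and 17903265 recovered reads in listed genes, and transcripts of the mitochondrial genome made up 31.1% of FPKM in NC replicate 2 against 16.3% to 21.9% in the other 7. The tenocyte and fibroblast markers were high in both groups, with a mean log2(FPKM + 0.5) of 7.15 to 7.83 in NC and 7.22 to 7.99 after running, and none of the 10 was called. Fat and muscle transcripts were also abundant: 6 of 10 adipocyte markers were called lower in 0 h p.r., with mean levels of 7.29 to 8.56 in NC and 5.23 to 6.87 after running. The mean of the muscle markers ran from 6.38 in 0 h p.r. replicate 4 to 11.3 in 0 h p.r. replicate 1, around 7.82 to 9.26 in NC. In bulk tissue, fewer cells of a type and less RNA per cell cannot be told apart.

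**Figure D1:**
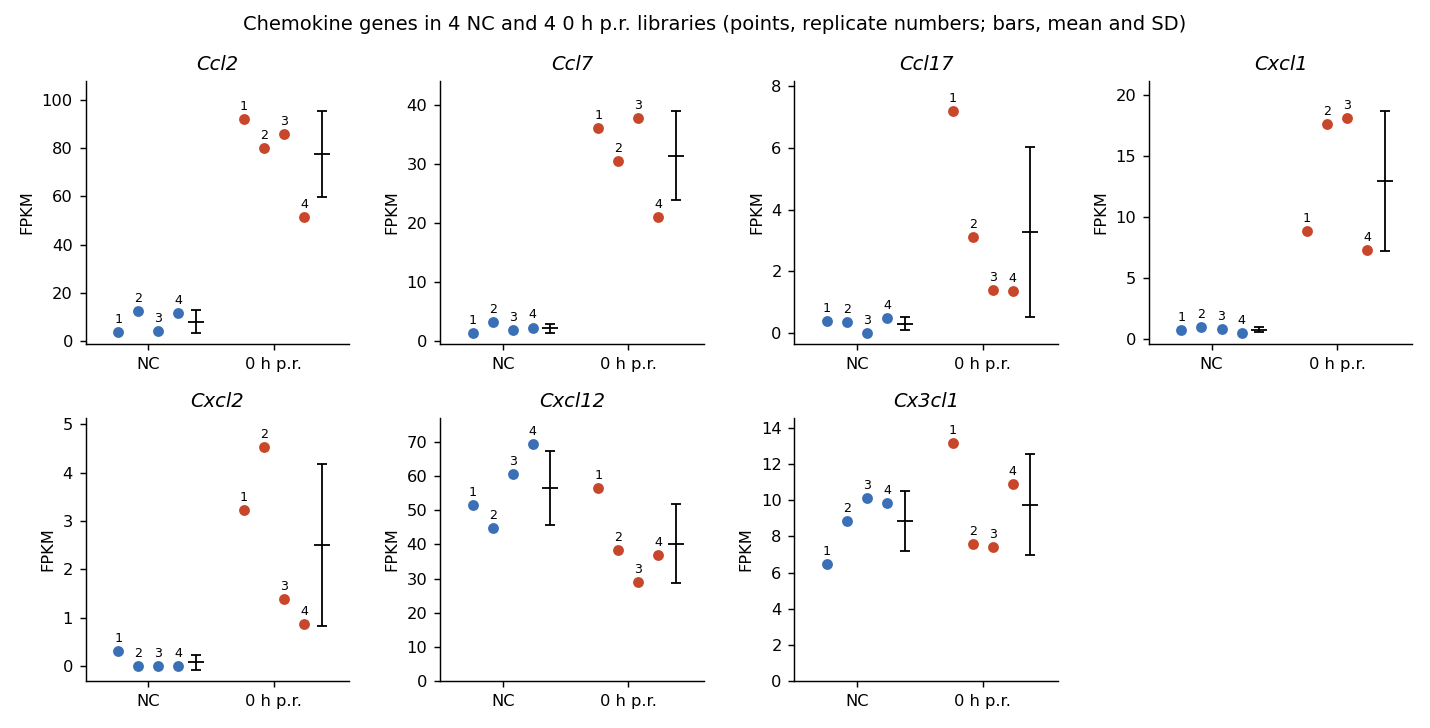
FPKM (vertical axis, linear, its own scale in each panel) of the 7 listed chemokine genes in 4 NC (blue) and 4 0 h p.r. (red) libraries, numbered by replicate, with black bars for the mean and SD. The red points lie above all blue points for Ccl2, Ccl7, Ccl17, Cxcl1 and Cxcl2, and the groups overlap for Cxcl12 and Cx3cl1.

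Because several of these genes are textbook targets of NF-kB, the sequence before their start sites is shown first. RefSeq promoter entries (build GRCr8) were matched by symbol for 7 of the 10 genes, Ccl7, Ccl17, Ccl20, Cxcl1, Cxcl2, Cxcl12 and Cx3cl1. The 250 bases before each start were searched on both strands for the NF-kB consensus, and 6.33% of 33469 rat promoters of that length held a match. Matches were found in 4 of the 7, those of Ccl7, Ccl20, Cxcl1 and Cxcl2. Matches on opposite strands overlapped in Cxcl1 and Cxcl2, whose stretch is shown as 1 run. The 150 bases before the start are printed 5′ to 3′ on the strand of the gene, for these 4 and for Cxcl12 as a gene without a match, with the consensus match in capitals. They lie at chr10:67513945-67514094 (plus strand, Ccl7), chr9:91837009-91837158 (plus strand, Ccl20), chr14:17479322-17479471 (minus strand, Cxcl1), chr14:17467256-17467405 (minus strand, Cxcl2) and chr4:152060631-152060780 (plus strand, Cxcl12).
Ccl7: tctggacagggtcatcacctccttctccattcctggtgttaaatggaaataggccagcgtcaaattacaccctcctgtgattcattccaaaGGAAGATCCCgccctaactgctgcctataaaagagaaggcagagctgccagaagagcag
Ccl20: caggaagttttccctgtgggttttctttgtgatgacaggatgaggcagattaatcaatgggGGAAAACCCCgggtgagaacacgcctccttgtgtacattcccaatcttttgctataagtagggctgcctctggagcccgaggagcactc
Cxcl1: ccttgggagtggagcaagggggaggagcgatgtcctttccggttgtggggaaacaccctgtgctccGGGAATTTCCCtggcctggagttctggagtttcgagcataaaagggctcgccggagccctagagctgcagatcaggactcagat
Cxcl2: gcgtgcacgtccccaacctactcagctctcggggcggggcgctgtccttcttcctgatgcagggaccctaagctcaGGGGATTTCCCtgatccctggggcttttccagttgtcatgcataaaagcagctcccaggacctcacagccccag
Cxcl12: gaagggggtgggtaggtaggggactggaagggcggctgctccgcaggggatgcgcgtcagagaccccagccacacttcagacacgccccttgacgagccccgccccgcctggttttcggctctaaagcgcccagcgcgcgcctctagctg

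The match of Ccl7 spans bases 59 to 50 before the start, that of Cxcl1 bases 84 to 74, that of Cxcl2 bases 74 to 64 and that of Ccl20 bases 89 to 80. The AP-1 letters TGANTCA, held by 6.34% of promoters, occurred in Ccl7 alone among the 7, at bases 73 to 67. The cAMP response element TGACGTCA, held by 1.59%, occurred in none of the 7. Such a match describes letters in a window, is not a measured site, and no match says only that these letters are not there. Of the 4 promoters with a match, 3 belong to genes that rose and 1 to a gene that was not listed, and Ccl17, which rose, had none. In the order of RefSeq genes along the chromosomes, no protein-coding gene lies between Ccl2 and Ccl7 or between Cxcl1 and Cxcl2. The same is true of Ccl17 and Cx3cl1, of which the first rose and the second did not pass the test. It is also true of Ccl7 and Ccl11, a ligand gene outside the members (log2 fold change -0.01, limma adjusted p 0.991).

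Ccl2 (ENSRNOG00000007159), the main monocyte attractant of this set, was already present at rest. Its FPKM was 3.77, 12.5, 4.32 and 11.9 in NC and 91.9, 80.2, 85.9 and 51.6 after running. The NC libraries fell into a lower and a higher pair, and even the lowest 0 h p.r. library, replicate 4, stood far above the highest NC library. The mean rose from 8.11 ± 4.71 to 77.4 ± 17.8 FPKM (SD, n = 4), or by 3.33 on the log2 scale, where the standard error (SE) was 0.39 and the 95% interval ran from 2.45 to 4.21 (limma adjusted p 0.00294). Between 53 and 148 recovered reads backed each NC value and between 779 and 1215 each 0 h p.r. value.

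Ccl7 (ENSRNOG00000000239), the neighbour of Ccl2 and a ligand of the same receptor, was lower at rest than Ccl2. Its FPKM was 1.26, 3.09, 1.76 and 2.21 in NC and 36.2, 30.6, 37.8 and 21.0 after running. The NC libraries ranked in the same order as for Ccl2, and 0 h p.r. replicate 4 was again lowest of its group. The log2 fold change was 3.64 (SE 0.25, 95% interval 3.07 to 4.21, limma adjusted p 0.000299), from 2.08 ± 0.777 to 31.4 ± 7.58 FPKM (SD, n = 4). The NC values rested on 19 to 28 reads and the 0 h p.r. values on 323 to 472.

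The ratio of Ccl7 to Ccl2, examined after the values were seen, showed no difference that passed a test. It was 0.333, 0.248, 0.408 and 0.186 in NC and 0.394, 0.382, 0.440 and 0.407 after running. The 0 h p.r. libraries lay close together within or just above the NC range. An exact permutation test of the log2 ratio over the 70 assignments of the libraries, two-sided, gave p = 0.114, or 0.171 after Benjamini-Hochberg adjustment over 3 ratios, where the smallest p possible is 0.0286. Among the 23 listed chemokine ligand genes, Ccl2 and Ccl7 together took 1.36%, 3.35%, 1.38% and 3.68% of the summed FPKM in NC and 21.3%, 22.7%, 26.5% and 13.3% after running. Their receptor gene Ccr2 was not listed.

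Cxcl1 and Cxcl2, neighbouring genes whose products attract neutrophils, were low at rest. The FPKM of Cxcl1 (ENSRNOG00000002802) was 0.729, 0.981, 0.883 and 0.508 in NC and 8.85, 17.7, 18.1 and 7.29 after running. Replicates 2 and 3 of 0 h p.r. were about level and stood above replicates 1 and 4, and no NC library reached an FPKM of 1. The log2 fold change was 3.31 (SE 0.30, 95% interval 2.63 to 3.99, limma adjusted p 0.000886). Pooled over libraries, 40 reads in NC and 743 after running gave a ratio of read rates of 17.1, with an exact 95% interval of 12.4 to 24.1 that covers counting error only. This ratio exceeds the fitted fold, since adding 0.5 to each FPKM shrinks the change of a low gene.

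Cxcl2 (ENSRNOG00000002792) was detected in 1 of 4 NC libraries. It had 6 reads in NC replicate 1 (0.315 FPKM) and was listed at 0 in the other 3, where a count of 0 allows up to 0.283, 0.191 and 0.188 FPKM (3 reads). In 0 h p.r. it had 46, 88, 19 and 17 reads, or 3.23, 4.52, 1.38 and 0.878 FPKM. Every 0 h p.r. library lay above NC replicate 1, and replicates 1 and 2 stood above replicates 3 and 4. The log2 fold change was 2.22 (SE 0.40, 95% interval 1.32 to 3.13, limma adjusted p 0.0178), and the pooled read-rate ratio was 26.0 with a counting interval of 11.7 to 71.9. Without NC replicate 3 the limma adjusted p was 0.0501 and without 0 h p.r. replicate 1 it was 0.0502, so the call was lost without either. Reads shared between the paralogs Cxcl1 and Cxcl2 were not tested.

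Markers of the neutrophils that these ligands attract were sparse. Of 10 neutrophil markers 4 were listed, and Elane, Mmp8, Ngp, Camp, S100a8 and Cxcr1 were not. Of the 2 tested, S100a9 was higher (log2 fold change 1.23, limma adjusted p 0.0192) and Mpo was lower (-1.45, adjusted p 0.0146) in 0 h p.r. Mpo passed the filter only through the NC libraries, and so had to differ to be tested, while S100a9 reached an FPKM of 0.5 in all 4 of the 0 h p.r. libraries and in 1 NC library. The summed FPKM of the listed markers was 1.44 to 4.67 in NC and 1.51 to 2.24 after running, so the groups overlapped. The receptor gene Cxcr2 failed the filter, with 0.725, 0.153, 1.81 and 0.408 FPKM in NC and 0, 0.251, 0 and 0.126 after running.

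Ccl17 (ENSRNOG00000016278), whose product attracts T cells through CCR4, rose by few reads. It had 2, 1, 0 and 2 reads in NC and 27, 16, 5 and 7 after running, on a gene model of 282 bases where the other 6 genes had 835 to 5423. The FPKM was 0.399, 0.358, 0 and 0.477 in NC, and 7.20, 3.13, 1.38 and 1.37 in 0 h p.r. Replicate 1 of 0 h p.r. was highest, and replicates 3 and 4 were level and closest to NC. The log2 fold change was 2.01 (SE 0.45, 95% interval 0.99 to 3.03, limma adjusted p 0.0374, and 0.0670 with voom on recovered reads), and the pooled read-rate ratio was 10.1 with a counting interval of 4.08 to 32.3. When libraries were left out one at a time, the adjusted p exceeded 0.05 in 6 of 8 fits, 0.111 at most, and the call held only without 0 h p.r. replicate 1 or replicate 4. The 6 were those without any one of NC replicates 1 to 4 and without 0 h p.r. replicate 2 or 3. The receptor gene Ccr4 and 5 of 7 T cell markers, Cd3d, Cd3e and Cd3g among them, were not listed, and the related ligand gene Ccl22 was at 0 to 0.174 FPKM in NC and 0.045 to 0.517 after running.

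Cxcl12 (ENSRNOG00000013589), the homeostatic ligand of CXCR4, was the most abundant of the 7 genes at rest. Its FPKM was 51.4, 44.7, 60.6 and 69.4 in NC and 56.6, 38.4, 29.0 and 37.0 after running. In 0 h p.r., replicates 2, 3 and 4 lay below all NC libraries, while replicate 1 lay within the NC range. The mean was 56.5 ± 10.7 FPKM in NC and 40.2 ± 11.7 after running (SD, n = 4), a log2 fold change of -0.51 (SE 0.21, 95% interval -0.99 to -0.03). The limma p of 0.0407 did not pass the adjustment (adjusted p 0.200), and 22.6% of tested genes had an unadjusted p under 0.05.

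Ackr3, the scavenging receptor that removes CXCL12, rose. Its FPKM was 45.2, 55.4, 69.2 and 94.1 in NC and 233, 317, 252 and 266 after running. The groups were far apart, with a log2 fold change of 2.05 (SE 0.22, limma adjusted p 0.00205), and the adjusted p stayed between 0.00188 and 0.0112 when any 1 library was left out. The ratio of Ackr3 to Cxcl12 in FPKM, examined after the values were seen, was 1.15 ± 0.204 in NC and 7.06 ± 2.06 after running (SD, n = 4). The exact permutation p was the smallest possible, 0.0286, and 0.0857 after adjustment over the 3 ratios. With the other ratios as they were, no smaller adjusted p was possible, so the adjusted value decides nothing. The gap in Ackr3 was wide enough, beside the spread of Cxcl12, to fix the unadjusted value too. Neither value adds to the call of Ackr3. Cxcr4, the signalling receptor of CXCL12, was at 4.71 to 7.33 FPKM in NC and 4.59 to 7.50 after running (log2 fold change 0.05, limma adjusted p 0.917). The ratio of Cxcl12 to Cxcr4 was 9.88 ± 3.38 in NC and 6.52 ± 1.72 after running (exact permutation p 0.171).

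Cx3cl1 (ENSRNOG00000016326) was present at a moderate level in all libraries. Its FPKM was 6.48, 8.88, 10.1 and 9.84 in NC and 13.2, 7.56, 7.44 and 10.9 after running. The 0 h p.r. libraries fell on both sides of the NC mean. The log2 fold change was 0.12 (SE 0.21, limma adjusted p 0.809), and its 95% interval of -0.37 to 0.60 lies inside a change of 2-fold either way. Its receptor gene Cx3cr1 was at 0.719 to 2.08 FPKM in NC and 0.294 to 1.29 after running (log2 fold change -0.47, limma adjusted p 0.446). Neither sheddase gene was called, with log2 fold changes of -0.29 for Adam10 and -0.09 for Adam17 (limma adjusted p 0.144 and 0.752). The FPKM of Adam10 was 30.4 to 37.4 in NC and 25.1 to 27.8 after running. All its 0 h p.r. libraries thus lay below all NC libraries, as for 7.47% of tested genes.

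**Figure D2:**
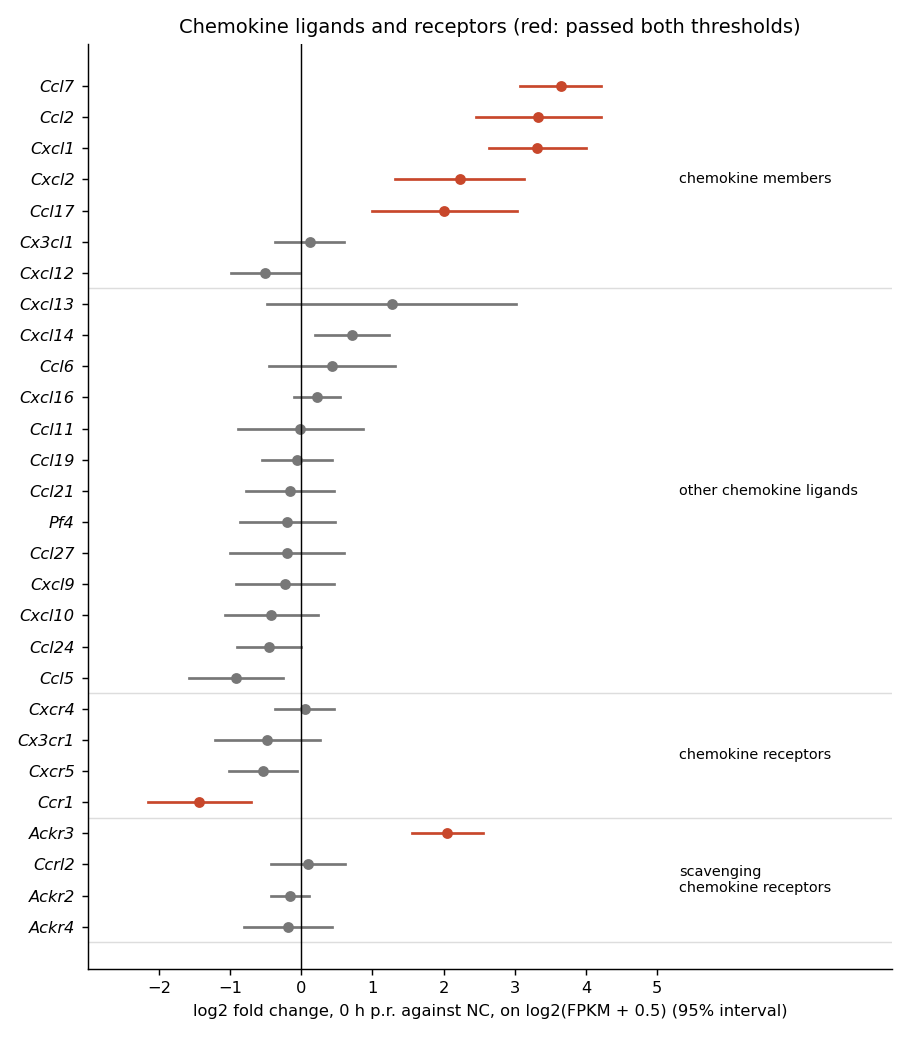
Log2 fold change of 0 h p.r. against NC on log2(FPKM + 0.5) (horizontal axis) with its 95% interval for tested chemokine ligand and receptor genes (1 receptor gene is not drawn), in red where both thresholds were passed. Of the ligands, 5 of the 7 members and none of the 13 others are red, a split that the choice of members largely fixed, and of the receptors Ackr3 lies at 2.05 and Ccr1 at -1.43.

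No other chemokine ligand gene was called in limma, and none with voom on recovered reads. Of 26 further ligand genes, 16 were listed and 13 tested, and their median log2 fold change was -0.16, with 3 at an unadjusted p under 0.05. Cxcl13, a B cell attractant, had the largest difference, at 9.89, 2.48, 2.93 and 24.7 FPKM in NC and 8.26, 9.74, 17.1 and 56.6 after running. Its groups overlapped widely (log2 fold change 1.27, limma adjusted p 0.382). The log2 fold change of Cxcl13 ran from 0.69 to 1.87 when 1 library was left out. The lower value is smaller in size than the change of Ccl5 with all libraries. Ccl5, a T cell attractant, was at 0.50 to 2.04 FPKM in NC and 0.276 to 0.508 after running (log2 fold change -0.92, limma adjusted p 0.103). Cxcl14 was at 19.7 to 35.3 FPKM in NC and 33.9 to 61.0 after running (log2 fold change 0.71, limma adjusted p 0.110).

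Levels per gene length placed Ccl21, a lymphatic ligand of CCR7, first among the 23 ligand genes in both groups, at a mean of 206 FPKM in NC and 185 after running. It was also the only ligand whose libraries all lay above those of the next in the order, in either group. In NC, Cxcl12 followed in place 2, Cx3cl1 in place 8, Ccl2 in place 9, Ccl7 in place 13, Cxcl1 in place 17, Ccl17 in place 21 and Cxcl2 in place 22. In 0 h p.r., Ccl2 was in place 2, Cxcl12 in place 4, Ccl7 in place 6, Cxcl1 in place 9, Cx3cl1 in place 11, Ccl17 in place 15 and Cxcl2 in place 16. Below Ccl21, the ranges of neighbours in these orders overlapped, so single places should be read loosely.

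**Figure D3:**
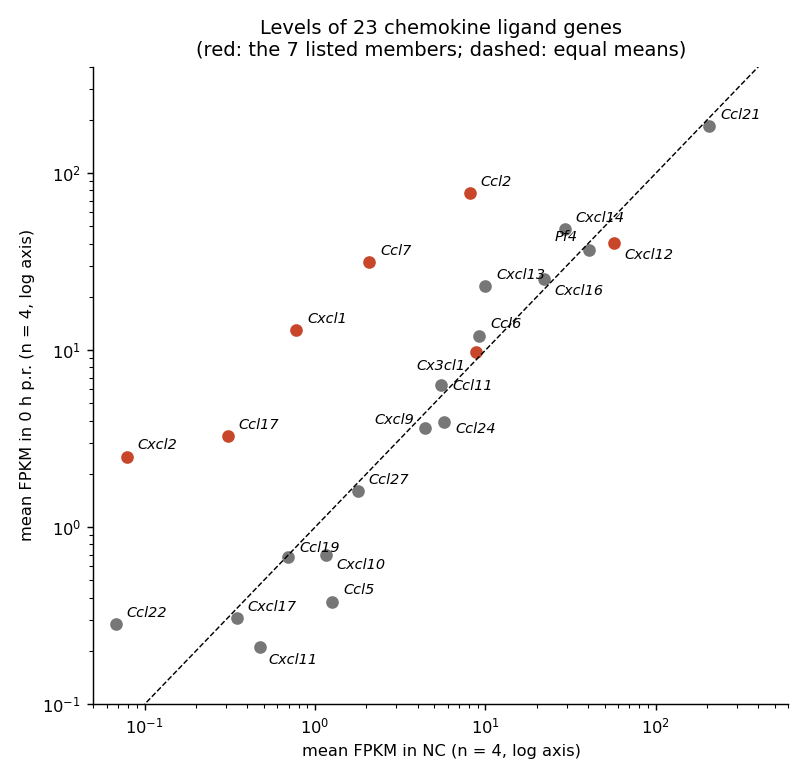
Mean FPKM of the 23 listed chemokine ligand genes in NC (horizontal axis) and in 0 h p.r. (vertical axis), both on log axes with n = 4 libraries, and the line of equal means. Ccl2, Ccl7, Cxcl1, Ccl17 and Cxcl2 (red) stand well above the line, while Ccl21, at 206 and 185 FPKM, lies near it.

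Of 18 signalling chemokine receptor genes, 10 were listed and 5 tested. Ccr1, a receptor of CCL7 and CCL5 on monocytes, was called lower. Its FPKM was 4.66, 4.81, 2.25 and 3.57 in NC and 0.896, 1.43, 0.423 and 1.83 after running, with no overlap (log2 fold change -1.43, standard error 0.32, limma adjusted p 0.0370). After rescaling to TPM the adjusted p was 0.0932, and the call was also lost on removal of any one of NC replicates 1, 2 and 4 or of 0 h p.r. replicates 1, 2 and 3 (6 of 8 fits, adjusted p 0.106 at most). Cxcr5, the receptor of CXCL13, was the most abundant of the 5, at 10.8 to 17.2 FPKM in NC and 7.40 to 12.5 after running (log2 fold change -0.54, adjusted p 0.170). Ccr6, the receptor of CCL20, and Ccr7, Ccr10, Cxcr2 and Cxcr6 were under the filter. The receptor genes Ccr3, Ccr8, Ccr9, Cxcr3 and Xcr1 were also not listed. Of the scavenging receptor genes, 4 of 5 were tested and Ackr3 alone was called, while Ackr2, which removes inflammatory CC chemokines, had a log2 fold change of -0.16 and Ackr4 one of -0.18 (limma adjusted p 0.480 and 0.760).

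Macrophage markers, which mark the cells that carry CCR1, gave 0 calls among 12 in limma. Their summed FPKM was 458 to 886 in NC and 568 to 1267 after running, and Lyz2 added most to it (means of 369 and 455). The markers did not move as 1, since 6 of the 12 had a log2 fold change above 0. Cd163 had the largest difference (log2 fold change -1.09, limma adjusted p 0.0982). The 2 of the 12 with an unadjusted p under 0.05 were Cd163 and Cd14, in opposite directions (Cd14 0.52, limma adjusted p 0.200). Endothelial markers, of which Pecam1 was not listed, gave 0 calls among 7 tested, with 1 at an unadjusted p under 0.05, and a summed FPKM of 484 to 555 in NC and 432 to 523 after running. The dendritic and mast cell markers gave 0 calls among 5 tested, with 2 at an unadjusted p under 0.05. Of these, Kit, a mast cell receptor gene named after its values were seen, missed only the fold threshold, at 3.62 to 5.06 FPKM in NC and 1.73 to 2.64 after running with no overlap (log2 fold change -0.88, limma adjusted p 0.0187). The part of the adipocyte and muscle transcripts in the chemokine differences was not tested. The log2 fold changes of Ccl2, Ccl7 and Cxcl1 stayed at 3.05 or above when any 1 library was left out.

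Chemokines are held on heparan sulphate chains of syndecans and glypicans, and 1 of 11 genes of shedding and presentation was called. Sdc4, which encodes syndecan 4, rose from 25.2, 22.6, 30.5 and 36.0 FPKM in NC to 93.9, 105, 74.9 and 131 in 0 h p.r. (log2 fold change 1.80, limma adjusted p 0.00226). The groups did not overlap, whereas those of Sdc1, Sdc2 and Gpc1 did, with log2 fold changes of 0.50, 0.21 and 0.14. The median of the 11 genes was 0.02.

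Of 8 leukocyte adhesion genes, which act on the endothelium where chemokines arrest rolling leukocytes, 6 were tested and 3 were called higher, with a median log2 fold change of 0.60. Selp, which encodes P-selectin, was at 7.55, 7.52, 9.57 and 8.45 FPKM in NC and 47.6, 36.3, 40.6 and 14.3 after running (log2 fold change 1.88, limma adjusted p 0.0152). Its lowest 0 h p.r. library was replicate 4, as for the 5 called chemokine genes. Sele, which encodes E-selectin, was at 4.08 to 6.75 FPKM in NC and 10.1 to 20.4 after running (log2 fold change 1.40, limma adjusted p 0.0187). Icam1, a ligand of leukocyte integrins, was at 15.3 to 19.4 FPKM in NC and 28.4 to 42.9 after running (log2 fold change 1.07, limma adjusted p 0.00698, and 0.0655 after rescaling to TPM). Selp and Sele both lost their calls on removal of NC replicate 1 or of 0 h p.r. replicate 3, Selp also on removal of 0 h p.r. replicate 2, and Sele on removal of NC replicate 3, at adjusted p of 0.0519 to 0.0618. The call of Sele was also lost with the replicate number as a block. Icam2 had a log2 fold change of -0.38 (adjusted p 0.142).

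A list of NF-kB subunits, NF-kB inhibitors and cofactors, and mRNA decay genes gave 5 calls among 12, all higher, with a median log2 fold change of 0.79. Zfp36 encodes tristetraprolin, which binds AU-rich elements and hastens decay of such mRNAs, and it was at 55.6, 42.3, 50.3 and 53.3 FPKM in NC and 229, 264, 227 and 149 after running (log2 fold change 2.08, limma adjusted p 0.000886). Here too 0 h p.r. replicate 4 was lowest and the groups were far apart. Nfkbiz, a nuclear NF-kB cofactor, rose by a log2 fold change of 2.02 (adjusted p 0.000947), from 2.62 to 4.11 FPKM in NC to 12.8 to 21.2 in 0 h p.r. Rel, an NF-kB subunit, and Zc3h12a, the ribonuclease Regnase-1, rose by 1.62 and 1.36 (adjusted p 0.00594 and 0.00518, the latter 0.0608 after rescaling to TPM). Tnfaip3, the A20 inhibitor, rose by 1.12 (adjusted p 0.0264), a call that was lost in 6 of the 8 fits without 1 library and held on removal of replicate 4 of either group. Rescaling to TPM (adjusted p 0.139) and a block for the replicate number each also ended the call of Tnfaip3. Nfkbia, which encodes the NF-kB inhibitor IkB-alpha, was at 105 to 133 FPKM in NC and 138 to 284 after running (log2 fold change 0.89), with an adjusted p of 0.0506 that became 0.00522 without 0 h p.r. replicate 4.

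**Figure D4:**
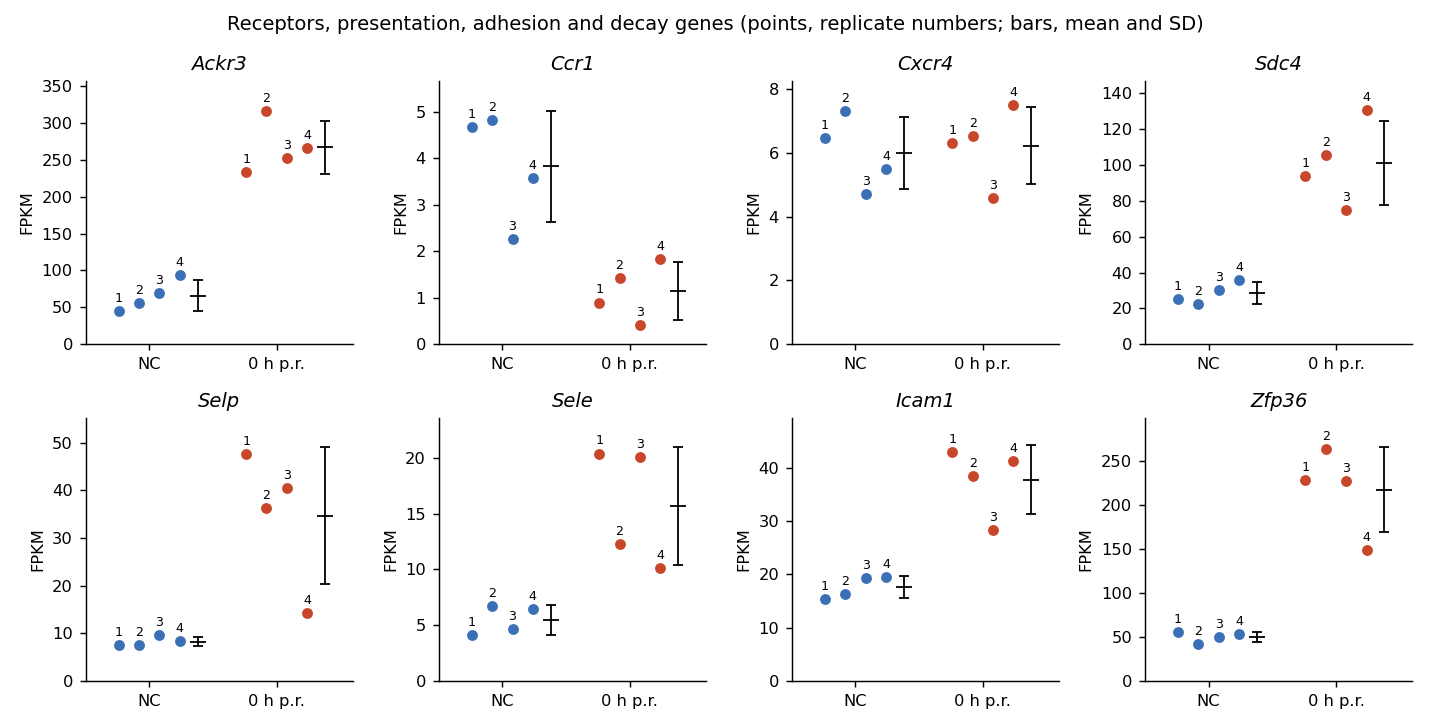
FPKM (vertical axis, linear, its own scale in each panel) of Ackr3, Ccr1, Cxcr4, Sdc4, Selp, Sele, Icam1 and Zfp36 in 4 NC (blue) and 4 0 h p.r. (red) libraries, numbered by replicate, with black bars for the mean and SD. Cxcr4 overlaps between the groups, Ccr1 is lower in every red library, and the other 6 genes are higher in every red library.

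Among the 0 h p.r. libraries, replicate 4 had the lowest level of all 5 called chemokine genes. Replicate 1 was highest for Ccl2 and Ccl17, replicate 2 for Cxcl2, and replicate 3 for Ccl7 and Cxcl1. Replicate 4 was also at one end of several marker means. The muscle mean was 11.3, 8.89, 9.60 and 6.38 in replicates 1 to 4, the order of Ccl2 but of none of the other 4 genes. The adipocyte mean (5.23, 6.11, 5.97 and 6.87) and the macrophage mean (3.85, 4.67, 3.91 and 4.81) ran in the reverse of that order. The endothelial mean was 5.90, 5.74, 5.96 and 5.62, the order of Ccl7, and was below all NC libraries in replicates 2 and 4. The part of these cells in the chemokine levels was not tested. Without replicate 4, the log2 fold changes were between 2.26 (Ccl17) and 3.82 (Ccl7). Ccl2, Ccl7 and Cxcl1 passed both thresholds in all 8 fits with 1 library removed, with limma adjusted p of 0.0156, 0.00304 and 0.00496 at most.

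**Figure D5:**
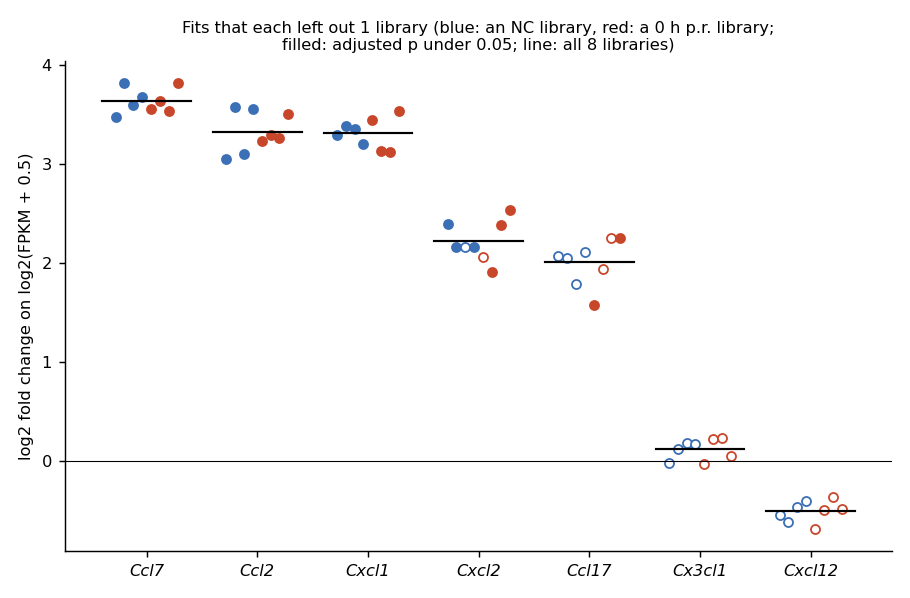
Log2 fold change on log2(FPKM + 0.5) (vertical axis) of the 7 genes in 8 fits that each left out 1 NC (blue) or 1 0 h p.r. (red) library, filled where the limma adjusted p was under 0.05, with a line at the value from all 8 libraries. The points of Ccl7, Ccl2 and Cxcl1 are all filled, 2 of 8 are open for Cxcl2 and 6 of 8 for Ccl17, and the points of Cx3cl1 lie on both sides of 0.

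The genes whose log2 levels followed each member most closely over the 8 libraries, by Pearson's r, are given as a description, since the gap between the groups enters every value. Those nearest Ccl7 were Actg1 (r = 0.995), a cytoplasmic actin gene, and the inducible genes Crem (0.993), a cAMP-responsive regulator, and Gadd45g (0.991). Actg1 was also nearest Ccl2 (0.99), ahead of LOC100361457 (0.989) and Ube2s (0.987). Those nearest Cxcl1 were the transcription factor genes Cebpd (0.99) and Myc (0.986), then Atp6v1b2 (0.985). Cxcl2 was followed by Itpkc (0.987), an inositol trisphosphate kinase gene, Cdc42ep2 (0.975) and Ppp1cc (0.971). The genes nearest Ccl17 were LOC499235 (0.982), Ppp2r2a (0.958) and Ppp2r2d (0.951). For Cxcl12 they were Tbck (0.988), Arhgef37 (0.963) and Ccdc51 (0.961), and for Cx3cl1 Eif2ak1 (0.937), Nck2 (0.923) and Mthfd2l (0.896), none of these 6 called.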

How the data were processed

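According to the study's methods and processing notes, polyA RNA was made into stranded libraries, aligned with HISAT2 2.1.0 to Rnor_6.0, counted per gene with featureCounts 1.6.3 and normalized with DESeq2 1.30.1. The deposited FPKM values were scaled between libraries by the authors. The authors' own log2 fold changes and p-values stood in the same table and were not used.

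Libraries were grouped by their titles. The values of 1 receptor gene are not reported here. Genes that reached an FPKM of 0.5 in 4 or more of the 8 libraries (13863 of 15590) were compared on log2(FPKM + 0.5) with limma 3.58.1 in R 4.3.3 (lmFit, eBayes with trend), two-sided, without covariates, with Benjamini-Hochberg adjustment over all tested genes. Whole reads were recovered from the steps of the FPKM values (100% of genes, tolerance 0.02 reads) and gave the depth and the counting intervals. The recovery and the fit were tested on simulated data. Promoter sequences came from RefSeq (GRCr8), a build other than that of the files. Ratios and exact permutation tests used Python 3.11.15 with numpy 2.4.6 and scipy 1.17.1.

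The members and lists were chosen with earlier results of these data known. Named were all members and, of each companion list, the genes called, the 2 with the largest change and the 2 with the highest level, and, for each member, the 3 genes most like it. Adam10, Adam17, Ccl11, Ccl22, Cx3cr1, Cxcr2 and the cell markers were chosen after their values were seen. Alternatives, each tried singly, were voom on recovered reads, protein-coding genes only, array weights, a block for the replicate number, TPM, median-ratio or quantile scaling, calls by adjusted p at any fold or against a fold of 1.5, pseudocounts of 0.1 and 1, a mean FPKM of 2 or more as the filter or none, and fits with 1 library removed.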

Additional observations from a re-analysis of the deposited data

Results flagged for a closer look

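Cxcl2 in NC replicate 1 stood apart from its group, at 0.315 FPKM (6 reads) against 0 in the other 3 NC libraries. It was the only 1 of 62 groups of values examined in which the highest or lowest library lay so far from the others, measured by Dixon's ratio at the 5% level, and chance alone flags about 1 in 20. With the other 3 values at 0, any value above 0 would have been picked out, and 0.315 FPKM is close to the 0.283 FPKM that a count of 0 allows in NC replicate 2.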

How the results depend on the processing

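Over all genes, 374 calls became 166 after rescaling to TPM, 212 with the replicate number as a block, 793 with the adjusted p alone, 60 against a fold of 1.5, and 195 to 516 when 1 library was left out. The deviations of same-numbered libraries correlated at -0.14, -0.07, 0.07 and 0.01, and those of differently numbered libraries at -0.25 to 0.23. The replicate numbers thus gave no sign of pairing, but so few libraries cannot decide whether they pair. With the block, Tnfaip3 and Sele lost their calls (adjusted p 0.0911 and 0.0845) and the chemokine count stayed at 5. The 5 chemokine calls became 3 with a mean FPKM of at least 2, where 5 of the 7 genes were tested, 3 against a fold of 1.5, and 3 to 5 without 1 library, lowest without NC replicate 3. Cxcl2 and Ccl17 were the calls lost against a fold of 1.5 (adjusted p 0.160 and 0.401), and Ccl17 was also lost with voom on recovered reads (0.0670). The 2 receptor calls became 1 after rescaling to TPM, 1 against a fold of 1.5 and 1 to 2 without 1 library. The 5 calls of the NF-kB list became 3 after rescaling to TPM and 2 against a fold of 1.5. The 3 adhesion calls became 0 against a fold of 1.5 and 1 to 3 without 1 library, lowest when NC replicate 1 or the third 0 h p.r. library was removed. The log2 fold change of Cx3cl1 ranged from -0.033 to 0.228 without 1 library, below 0 when NC replicate 1 or the first 0 h p.r. library was removed (-0.016 and -0.033), and that of Cxcr4 from -0.051 to 0.177, below 0 when NC replicate 3 or the fourth 0 h p.r. library was removed (-0.051 and -0.040). The call of Icam1 was lost after rescaling to TPM (adjusted p 0.0655) and, at a fold under 2, after quantile normalization (log2 fold change 0.99), and Nfkbia was called with array weights (adjusted p 0.00714). Why these values moved was not tested. The test planned for members under the FPKM filter had none to apply to. Under 20 reads, as for Cxcl1, Cxcl2 and Ccl17 in every NC library, the depth limits the size of a fold.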
